A study of Saccharomyces cerevisiae with 11 samples.

Results

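Tandem gaps are the stretches between neighbouring open reading frames (ORFs) that are transcribed in the same direction, so each gap holds the 3′ end of one gene and the promoter of the next. The gaps described here lie between adjacent nuclear protein-coding ORFs of Saccharomyces cerevisiae on the same strand, are 200 to 1000 bp long and have no other annotated gene between. The rule found 2179 such gaps among 4065 gaps of that length, the others being 1121 divergent and 765 convergent gaps. Every gap was oriented with transcription and cut at its midpoint into a promoter side, next to the start codon of the downstream gene, and a terminator side, next to the stop codon of the upstream gene. Both sides include untranslated regions, because gap borders were taken from ORFs.

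Nucleosomes are the histone-bound units of chromatin, and micrococcal nuclease (MNase) cuts the DNA between them, so that sequenced fragments show which bases were protected. Yeast promoters are known for a nucleosome-depleted region upstream of a well-placed first nucleosome, the +1 nucleosome, and gene ends often hold a depleted region as well. Fragile or loosely protected stretches are known to be retained by light digestion and lost under heavy digestion. Topoisomerases Top1 and Top2 relieve the supercoils that transcription creates ahead of and behind the polymerase, and a tandem gap lies behind one polymerase and ahead of another.

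The 11 libraries came from fixed BY4742 cells grown in synthetic complete medium with 2% galactose. In every strain both Top1 and Top2 carried AID, the auxin-inducible degron, by which the plant protein OsTIR1 targets a tagged protein for breakdown when auxin is added. Grouped by the names of the deposited files, the heavily digested libraries (0.1875 U of MNase) were 2 of the OsTIR1 strain given auxin (500 uM, 60 min), 2 of the untreated OsTIR1 strain and 2 of the strain without OsTIR1. The lightly digested ones (0.01171875 U) were 2 with auxin, 1 untreated with OsTIR1 and 2 without OsTIR1. Strain yTL1245 lacked OsTIR1, and strain yTL1290 expressed it from the ADH1 promoter. Letters A and B are those of the file names. Auxin-treated and untreated OsTIR1 cells came from split cultures, and libraries of both doses may share a culture, so p-values below measure the spread between these libraries. A degron acts on protein, so DNA coverage cannot show the depletion.

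For 4 of the 11 libraries the sample label and the file name disagree. The untreated heavy library B, the auxin heavy library A and the auxin light library B carry labels with the other dose, and the auxin light library A is labelled as untreated at the high dose. Mean fragment length by file name was 129 and 129.3 bp with auxin, 131.1 and 132.4 bp untreated and 133.6 and 140.3 bp without OsTIR1 in the heavy libraries. The light libraries had 162.2 and 150.1 bp with auxin, 149.8 bp untreated and 161.1 and 160.3 bp without OsTIR1, so no light library was as short as any heavy one. Nuclear fragments per library ran from 8906121 to 31138013, which gave a mean nuclear coverage of 111 to 332 fragments per base. All values are relative coverage, that is coverage divided by the library's nuclear mean without the ribosomal DNA, so a level of 1 is the genome average.

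The gaps were short, with a median of 384 bp, against 460 bp for divergent and 308 bp for convergent gaps. There were 602 gaps of 200 to under 300 bp, 563 of 300 to under 400 bp, 651 of 400 to under 600 bp and 363 of 600 to 1000 bp, and 1105 lay on the Watson and 1074 on the Crick strand. A gap entered the tests when the mean relative coverage of each side over all libraries was at least 0.1, which 2176 gaps passed. The 3 that did not were TKL2-LYS2, GEA2-URA3 and URA3-TIM9, which border LYS2 and URA3, genes deleted in BY4742. The side of TKL2-LYS2 next to LYS2 averaged 0.000345, that of GEA2-URA3 next to URA3 was listed at 0, and the side of URA3-TIM9 next to URA3 averaged 0.0247.

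The first comparison asks how much protected DNA each side held under heavy against light digestion. Heavily digested libraries had gaps below the genome average, and lightly digested ones had gaps above it. The median promoter side was at 0.783 and 0.821 with auxin, 0.841 and 0.811 untreated and 0.815 and 0.903 without OsTIR1 in heavy libraries. Light libraries had 1.27 and 1.29 with auxin, 1.38 untreated and 1.46 and 1.53 without OsTIR1. Heavy and light libraries did not overlap. Median terminator sides were at 0.774 and 0.782, 0.79 and 0.738, and 0.739 and 0.857 in the same order of heavy libraries, against 1.28 and 1.24, 1.39, and 1.45 and 1.53 in the light ones. Averaged over libraries, promoter sides were at 0.829 ± 0.041 (SD, n = 6) under heavy and 1.38 ± 0.111 (SD, n = 5) under light digestion. Terminator sides averaged 0.78 ± 0.0436 (SD, n = 6) under heavy and 1.38 ± 0.121 (SD, n = 5) under light digestion.

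Relative to the genes around it, the gap was a dip under heavy and a hump under light digestion. Between 65.5% and 83% of tandem gaps lay below both the last 300 bp of the upstream ORF and the first 300 bp of the downstream ORF in each heavy library, against 0.826% to 4.64% in each light library. Conversely, 2.02% to 5.51% of gaps exceeded both flanks in heavy libraries and 68.8% to 83.9% did in light ones.

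Tests used limma on log2(relative coverage + 0.1), fitted over all sides of all 4065 gaps with a mean for each of 6 groups, and p-values adjusted by Benjamini-Hochberg at 0.05. The digestion change is the heavy minus light log2 difference averaged over the 3 states, and the pseudocount makes it understate changes of low sides. Of 2177 tandem promoter sides tested, 1839 fell and 50 rose under heavy digestion, with a median log2 change of -0.71. Of 2178 terminator sides, 1937 fell and 47 rose, with a median of -0.81. Over all 8127 sides of all gaps 87.7% were called, 85.3% as lower and 2.35% as higher, and the median was -0.709. Both sides fell past the threshold in 1663 of the 2176 gaps (76.4%), against 74.9% of all gaps. Scaling coverage to ORF bodies shifts the heavy minus light difference of log2 coverage by -0.32 before the pseudocount is added. With that scaling 2070 promoter sides fell and 19 rose, and 2097 terminator sides fell and 14 rose. With groups taken from GEO's sample labels in place of file names, limma called 0 promoter and 0 terminator sides, with 1 of each at an unadjusted p under 0.05. In the 7 libraries with matching label and file name, 1716 promoter sides fell and 50 rose, and 1849 terminator sides fell and 42 rose, beside 80.2% of all sides lower and 2.13% higher.

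**Figure D1:**
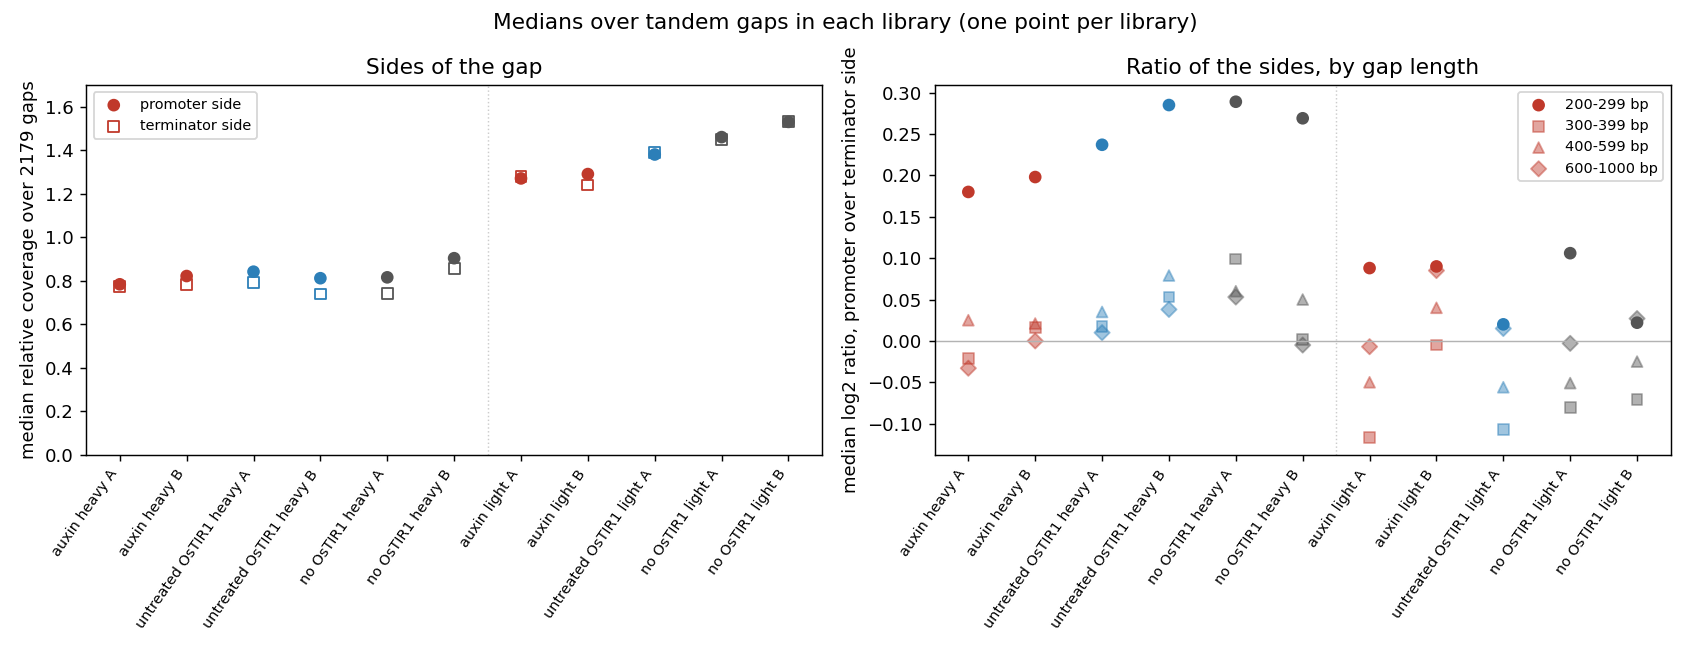
Medians over tandem gaps in each library, 1 point per library, coloured by state with heavy digestion left of the dotted line. The left panel gives median relative coverage of the promoter side (filled) and the terminator side (open), which stay below 1 in the 6 heavy libraries and above 1 in the 5 light ones; the right panel gives the median log2 ratio of promoter over terminator side by gap length, where gaps of 200 to under 300 bp reach 0.289 in a heavy library and 0.106 in a light one.

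The second comparison sets the sides of a gap against each other. Over all gaps the difference was small at both digestion levels. The median log2 ratio of promoter over terminator side was 0.04 and 0.07 with auxin, 0.07 and 0.11 untreated and 0.11 and 0.06 without OsTIR1 in heavy libraries. In light libraries it was -0.04 and 0.04 with auxin, -0.03 untreated and -0.03 and -0.01 without OsTIR1. The means were 0.08 ± 0.03 (SD, n = 6) under heavy and -0.01 ± 0.03 (SD, n = 5) under light digestion. The lowest heavy library and the highest light library, both treated with auxin, were at the same level, as the plot of library medians shows.

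The promoter side was the higher one in 51.8% to 57% of gaps in heavy libraries and in 47.1% to 54.3% in light ones. Single gaps were far more lopsided than the median: the sides differed more than 2-fold, in either direction, in 17.9% to 23.3% of gaps in heavy libraries and in 1.74% to 8.9% in light ones. The promoter side was higher in all 6 heavy libraries in 909 gaps and lower in all 6 in 721. It was higher in all 5 light libraries in 611 gaps and lower in all 5 in 627. The same side was the higher one in all 11 libraries in 714 gaps, the promoter side in 371 and the terminator side in 343. In 131 gaps the promoter side was higher in every heavy and lower in every light library, and in 91 gaps the opposite held. These patterns were counted in the 2179 tandem gaps only, so they are not shown to be particular to tandem gaps.

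As a description over 2179 gaps, the log2 ratio of pairs of heavy libraries correlated with r of 0.904 to 0.985 (median 0.968, 15 pairs), and that of pairs of light libraries with 0.552 to 0.913 (median 0.836, 10 pairs). Pairs of a heavy and a light library had r of 0.138 to 0.629, with a median of 0.361 over 30 pairs. Gaps share base composition and position across libraries, and gaps are not replicates.

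Under heavy digestion the ratio was highest in the shortest gaps. Gaps of 200 to under 300 bp had a mean of library medians of 0.24 ± 0.05 (SD, n = 6) under heavy and 0.07 ± 0.04 (SD, n = 5) under light digestion, and their heavy range of 0.180 to 0.289 did not overlap the light range of 0.020 to 0.106. The 3 longer classes had 0.03 ± 0.04, 0.04 ± 0.02 and 0.01 ± 0.03 (SD, n = 6 each) under heavy digestion, from shorter to longer. Under light digestion they had -0.08 ± 0.04, -0.03 ± 0.04 and 0.02 ± 0.04 (SD, n = 5 each). In the shortest gaps the promoter side was at 0.792 ± 0.037 and the terminator side at 0.649 ± 0.0355 under heavy digestion (SD, n = 6 each). In gaps of 600 to 1000 bp the promoter side was at 0.86 ± 0.038 and the terminator side at 0.839 ± 0.0454 under heavy digestion (SD, n = 6 each).

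Per gap, limma called the digestion change of the ratio in 1443 of 2176 tandem gaps, 849 with a higher and 594 with a lower promoter over terminator ratio under heavy digestion. Over all 4062 gaps tested 60.8% were called, 33.2% as higher and 27.6% as lower, where the second side of a divergent or convergent gap is the one at the higher coordinate. Among divergent gaps 665 of 1121 were called and among convergent gaps 362 of 765. The median log2 change was 0.0967 over tandem gaps and 0.0405 over all gaps. By length, 248 of 601 gaps of 200 to under 300 bp had a higher and 125 a lower ratio, with a median change of 0.16. From 300 to under 400 bp, 225 of 562 were higher and 127 lower, with a median of 0.14. From 400 to under 600 bp, 249 of 650 were higher and 199 lower, with a median of 0.06. From 600 to 1000 bp, 127 of 363 were higher and 143 lower, with a median of -0.01. In the 7 libraries with matching label and file name, 1372 ratios were called (811 higher, 561 lower), beside 57.4% of all gaps, and with groups by GEO's labels 0 were called by limma, with 42 at an unadjusted p under 0.05.

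**Figure D2:**
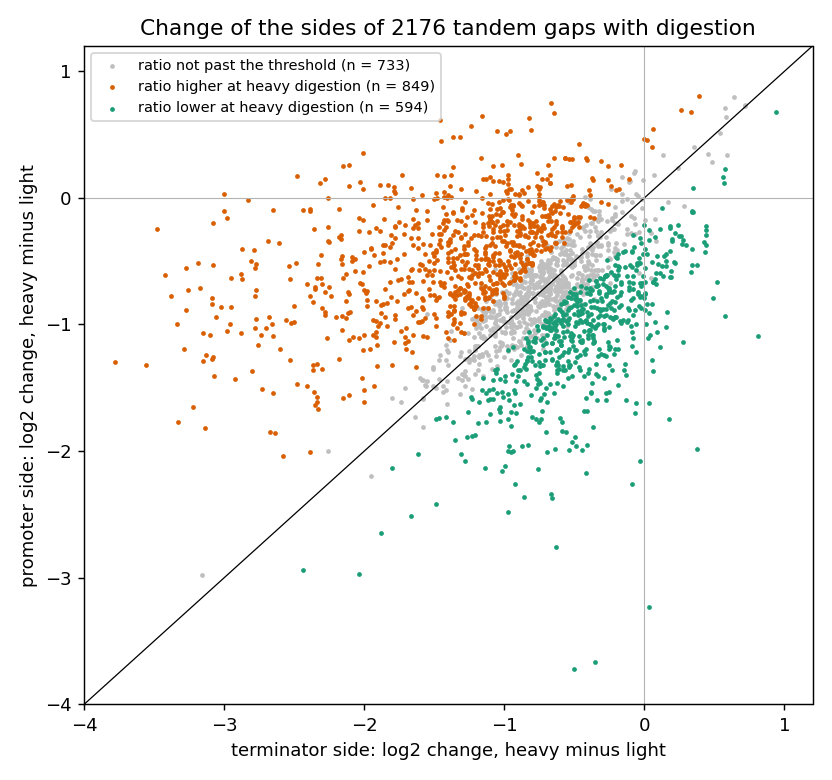
Log2 change of the promoter side (vertical axis) against that of the terminator side (horizontal axis), heavy minus light digestion, for 2176 tandem gaps. Most gaps lie in the lower left quadrant, where both sides fell; 849 gaps whose ratio was higher at heavy digestion lie above the diagonal and 594 with a lower ratio lie below it.

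The coverage profile across a gap changed shape with its length. In gaps of 200 to under 300 bp, a single trough lay at the middle, 46.2% to 51.2% of the way from stop to start codon in heavy libraries, at a mean relative coverage of 0.289 to 0.369. In light libraries the trough of these gaps reached 0.818 to 1.31. In gaps of 400 to under 600 bp the heavy trough lay at 58.8% of the gap in all 6 libraries, at 0.624 to 0.733, while the light libraries had their maximum before the midpoint, at 31.2% to 38.8%, with 1.56 to 2.06. In gaps of 600 to 1000 bp the mean heavy profile was shallower. Its lowest point was at 0.692 to 0.789 and its highest, near the start codon, at 1.1 to 1.18. The plot of profiles by length class shows the trough of the mean profile becoming shallower with length in heavy libraries.

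**Figure D3:**
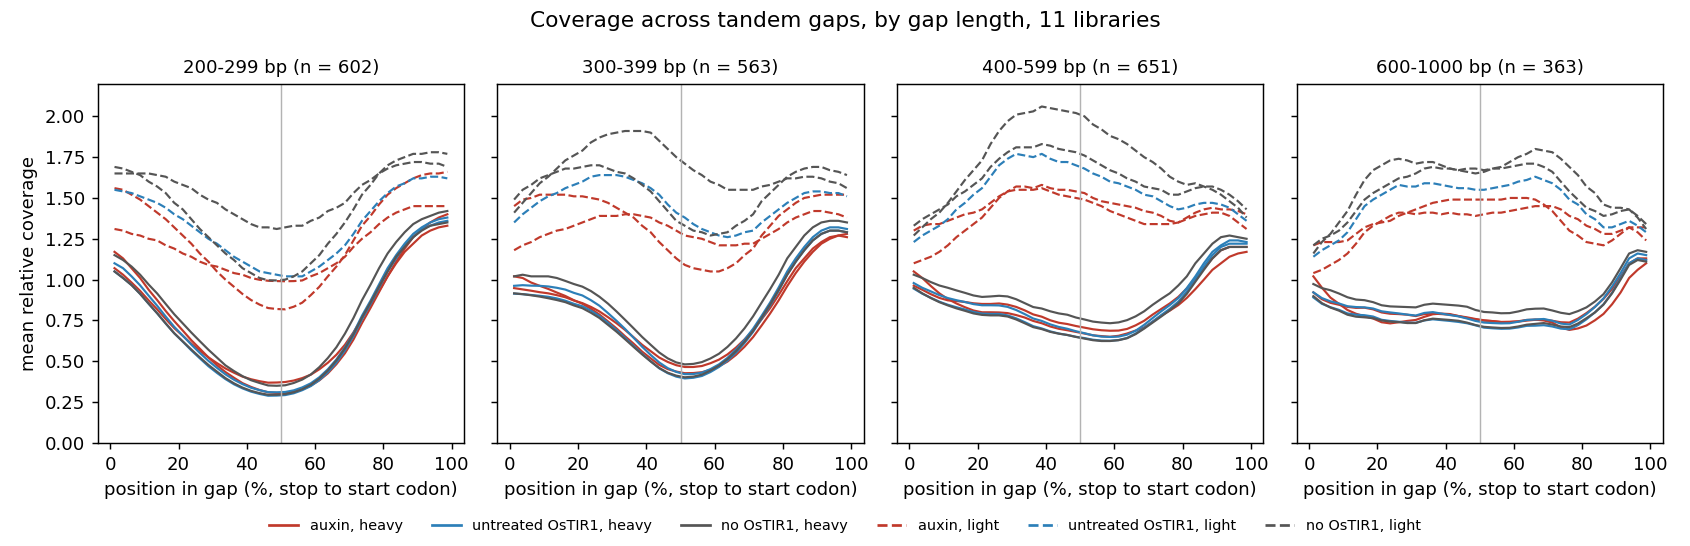
Mean relative coverage (vertical axis) across tandem gaps scaled to equal length (horizontal axis, percent of the gap from stop to start codon), by length class, 1 line per library; solid lines are heavy and dashed lines light libraries, and the grey line marks the midpoint. The lowest point in heavy libraries is at 0.289 to 0.369 in the shortest class and 0.692 to 0.789 in the longest.

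Measured in bp from the codons, the heavy libraries agreed closely. The mean profile upstream of the start codon was lowest at positions -155 to -149 relative to it, at 0.515 to 0.602, and highest 7 to 16 bp inside the ORF, at 1.26 to 1.31, where the +1 nucleosome of yeast genes is usually found. In gaps of 200 to under 300 bp that low point lay at positions -127 to -125. From 300 to under 400 bp it lay at -159 to -155, and from 400 to under 600 bp at -185 to -182. Within 200 bp after the stop codon the profile over all gaps was lowest at 150 to 155 bp, at 0.595 to 0.691. In the same classes, in order, it was lowest at 123 to 128 bp, at 180 to 184 bp and at 200 bp. The last is the end of that window, so gaps of 400 to under 600 bp had no low point inside it. In heavy libraries, gaps of 600 to 1000 bp were lowest within that window at 183 to 189 bp, at 0.739 to 0.835. Upstream of the start codon they were lowest at positions -177 to -167, at 0.68 to 0.778. The rise between these points was small. Scaled to equal length, the mean profile of no OsTIR1 heavy A went from 0.734 to 0.761 and then down to 0.704 in mid-gap. The light profiles instead had a maximum at positions -279 to -244 relative to the start codon, at 1.44 to 1.86, as the plot around the codons shows.

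**Figure D4:**
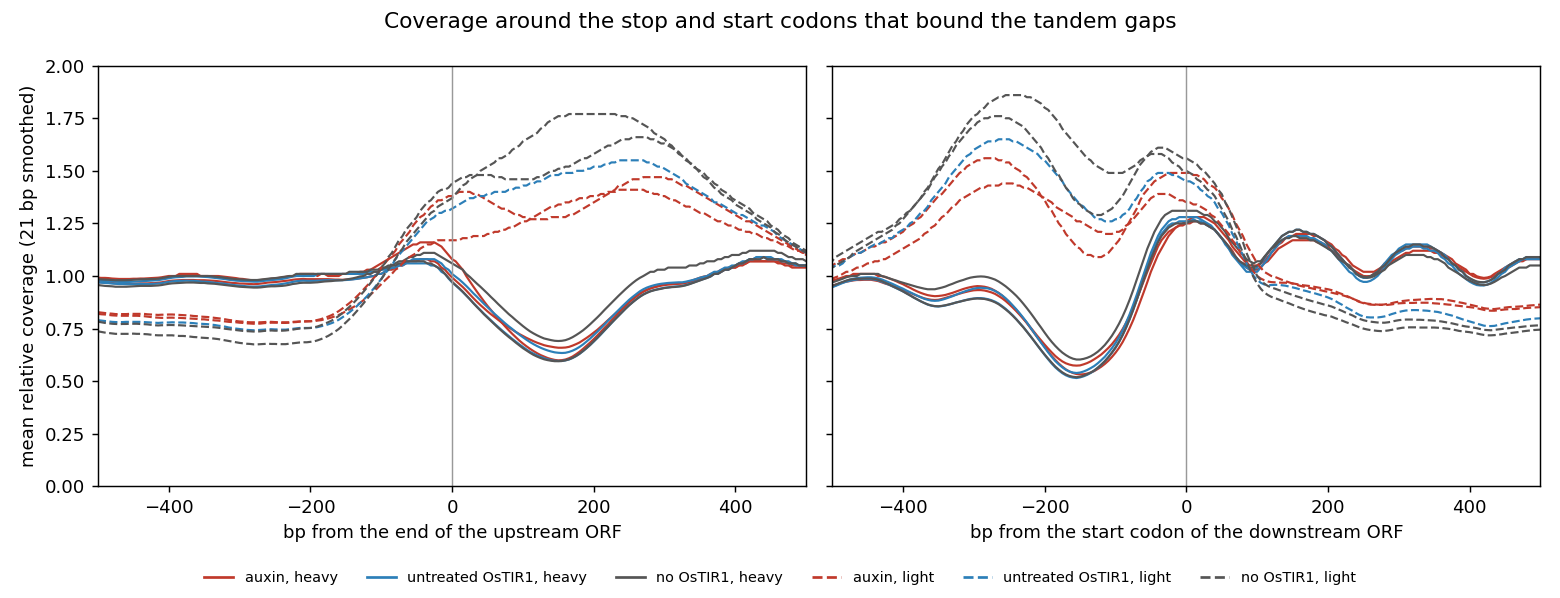
Mean relative coverage (vertical axis, smoothed over 21 bp) against distance in bp from the end of the upstream ORF (left) and from the start codon of the downstream ORF (right) of tandem gaps, 1 line per library, solid for heavy and dashed for light digestion. Heavy libraries dip to 0.515 to 0.602 before the start codon, where light libraries stay above 1.

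The single lowest base of each gap (coverage smoothed over 21 bp) lay in the terminator side in 43.8% to 46.4% of gaps in heavy libraries and in 44.1% to 56.4% in light ones. Its median distance to the start codon was 164 to 170 bp in heavy libraries. By length class it was 124 to 128 bp in gaps of 200 to under 300 bp and 156 to 160 bp in gaps of 300 to under 400 bp. It was 217 to 225 bp in gaps of 400 to under 600 bp and 320 to 332 bp in longer gaps. Median gap lengths in these classes were 253, 347, 476 and 725 bp. A longer gap allows a larger distance, so this rise does not by itself show a shift of the lowest base. The median level of the lowest base was 0.0993 and 0.148 with auxin, 0.0735 and 0.064 untreated and 0.0674 and 0.0871 without OsTIR1 under heavy digestion. Under light digestion it was 0.542 and 0.694 with auxin, 0.639 untreated and 0.655 and 0.756 without OsTIR1. In heavy libraries the median lowest base was 0.0785 to 0.163 in gaps of 200 to under 300 bp. It was 0.0465 to 0.129 in gaps of 600 to 1000 bp, where there are more bases to take the lowest from. The shallower mean profile of long gaps therefore did not come with a higher lowest base in single gaps.

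Some gaps lost their terminator side almost completely while the promoter side was kept. ESF2-NOG2, a 243 bp gap on chromosome XIV from 723113 to 723355 (sacCer3), lies between a factor of 18S rRNA processing and a GTPase of large ribosomal subunit assembly. Its promoter side had 0.976 to 1.42 under heavy (median 1.16) and 1.07 to 1.82 under light digestion. Its terminator side had 0.0579 to 0.136 under heavy digestion (median 0.081), against 0.861 and 1.8 with auxin, 2.8 untreated and 1.29 and 3.68 without OsTIR1 under light digestion. The promoter side overlapped between heavy and light libraries, whereas the terminator side was lower in every heavy library. Its log2 ratio changed by 3.23 (limma, SE 0.193, adjusted p 1.01e-06), the largest increase among tandem gaps.

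The next largest increases of the ratio had the same form. SHU1-STE20 on chromosome VIII (97938 to 98342), between a DNA repair gene and the kinase gene of the mating pathway, had a promoter side of 0.969 to 1.31 under heavy and 1.18 to 1.33 under light digestion. Its terminator side had 0.041 to 0.118 under heavy and 1.18 to 1.33 under light digestion, and the log2 ratio changed by 2.89 (limma, SE 0.153, adjusted p 5.66e-07). RPR2-YIR016W, UBX2-ERV25 and RTC1-CDC33 changed by 3.03, 2.89 and 2.82. CDC33 codes for the cap-binding factor eIF4E, and ERV25 for a membrane protein of early secretory vesicles. None of the promoter sides of these 5 gaps passed the threshold: their changes ran from -0.25 to 0.03.

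The largest decreases of the ratio showed the mirror image. YBR196C-B-YBR196C-A, 352 bp on chromosome II (614174 to 614525), separates 2 small ORFs of unknown function, and its promoter side had 0.0315 to 0.146 under heavy digestion, against 1.8 and 1.6 with auxin, 2.32 untreated and 2.24 and 2.51 without OsTIR1 under light digestion. Its terminator side had 0.836 to 0.873 under heavy and 0.969 to 1.23 under light digestion. The promoter side was far lower in every heavy library, and the terminator side was lower by a smaller step. The log2 ratio changed by -3.32 (limma, SE 0.0988, adjusted p 3.91e-08). NEJ1-YLR264C-A, next to a gene of nonhomologous end joining, changed by -3.27, and QCR6-MIN10, next to a subunit of respiratory complex III, by -3.21. Of these, the promoter side of QCR6-MIN10 had 0.0166 to 0.105 under heavy and 0.974 to 2.44 under light digestion. The other 2 of the 5 largest decreases, SMP1-RPS6B (-2.36) and YNL162W-A-RPL42A (-2.16), hold promoters of ribosomal protein genes.

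Among single sides, the terminator side of CSM2-RPL16A changed most, by -3.78 on the log2 scale (SE 0.108, limma adjusted p 1.77e-10). This gap of 443 bp on chromosome IX (99417 to 99859) lies between a DNA repair gene and a gene for a protein of the large ribosomal subunit. The side had 0.0136 to 0.0791 under heavy digestion (median 0.0425) and 1.4 and 1.87 with auxin, 2.11 untreated and 2.1 and 1.88 without OsTIR1 under light digestion. Its promoter side fell by 1.3, to 0.484 to 0.771 under heavy, against 1.48 to 1.64 under light digestion. SHR5-ZEO1, VAC7-MSG5 and RKM3-RPL4A had terminator sides that changed by -3.56, -3.42 and -3.38, where MSG5 codes for a phosphatase of MAP kinases and RPL4A for another large-subunit protein. Promoter sides that fell by nearly 3 included those of ARG8 in PPM2-ARG8 (-2.98) and ARG3 in SIP4-ARG3 (-2.97), both genes of arginine biosynthesis. In PPM2-ARG8 the terminator side changed by -3.16, and the change of the ratio, 0.18, did not pass the threshold (limma adjusted p 0.088).

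Sides that rose under heavy digestion were few. The 416 bp gap ATG33-RSC2, upstream of a subunit of the RSC chromatin remodeller, split in opposite directions. Its promoter side fell by 1.09 on the log2 scale, with 0.498 to 0.665 under heavy and 1.1 to 1.47 under light digestion. Its terminator side rose by 0.81 (SE 0.081, limma adjusted p 1.31e-06), with 0.891 to 1.09 under heavy and 0.475 to 0.614 under light digestion. SLO1-ISC10 rose in both sides, by 0.73 in the promoter and 0.72 in the terminator side. YAP7-YOL029C did so too, by 0.73 and 0.72. YHR218W-YHR219W, with 0.8 and 0.64, and YAR066W-YAR068W, with 0.68 and 0.94, lie in repeated subtelomeric families, so reads of near-identical copies make their values uncertain.

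Gene lists gave a view by function, with the list gene owning the side. Ribosomal protein genes, which are among the most highly transcribed genes of growing yeast, owned 54 promoter sides. Of these 50 fell and 4 rose under heavy digestion, with a median log2 change of -1.76. Over all sides 85.3% were lower and 2.35% higher, with a median of -0.709, so the count of falls is close to that share. Their median level was 0.457 and 0.511 with auxin, 0.381 and 0.355 untreated and 0.344 and 0.399 without OsTIR1 under heavy digestion. Under light digestion it was 1.25 and 1.5 with auxin, 1.63 untreated and 1.61 and 1.55 without OsTIR1. Ribosomal protein genes owned 51 terminator sides, of which 48 fell and 0 rose, with a median of -0.62, again beside 85.3% lower over all sides. The 3 not called were those of RPP1B-YDL129W (-0.21), RPL4B-PSF1 (-0.10) and RPL11B-MRP13 (0.06). The ratio of the 54 gaps with a ribosomal protein promoter was lower in 32 and higher in 18, with a median of -0.64. Over all gaps 27.6% were lower and 33.2% higher, with a median of 0.0405. Over tandem gaps 27.3% were lower and 39% higher, with a median of 0.0967.

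HMF1-RPL34A on chromosome V (270186 to 270736) had the largest fall among these promoters, -2.48 (SE 0.109, limma adjusted p 2.37e-09). Its promoter side had 0.202 to 0.355 under heavy digestion (median 0.273) and 1.39 to 2.48 under light digestion (median 2.03). The promoter side of YNL162W-A-RPL42A had 0.337 and 0.396 with auxin, 0.23 and 0.212 untreated and 0.206 and 0.259 without OsTIR1 under heavy digestion, against 1.39 to 1.76 in light libraries. Its terminator side stayed at 0.973 to 1.16 under heavy and 0.981 to 1.28 under light digestion. The 4 promoter sides that rose belonged to RPS26A (0.8), RPS22B (0.75), RPL29 (0.54) and RPS8A (0.46). That of RPS22B had 0.608 to 0.836 under heavy and 0.303 to 0.477 under light digestion. In gaps with a ribosomal protein promoter the lowest base lay a median of 262 to 283 bp before the start codon in heavy libraries, against 164 to 170 bp over all tandem gaps. These gaps were longer, with a median of 522 bp, and tandem gaps of 400 to under 600 bp had 217 to 225 bp; the difference was not tested.

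Genes of glycolysis and fermentation owned 8 promoter sides, and all 8 fell, with a median of -1.34, beside 85.3% lower and a median of -0.709 over all sides. TPI1, the triosephosphate isomerase gene, had the largest fall (-2.13), with 0.343 to 0.424 under heavy and 1.85 to 2.19 under light digestion. TDH3, a glyceraldehyde-3-phosphate dehydrogenase gene, fell by 1.85, PDC1 (pyruvate decarboxylase) by 1.52 and FBA1 (aldolase) by 1.49. The weakest were PYK2 and PFK1, with -0.65 each. The 7 terminator sides of these genes fell too, with a median of -0.68. Of the 8 ratios 6 were higher and 1 lower, beside 33.2% higher and 27.6% lower over all gaps. Tandem gaps had 39% higher and 27.3% lower. The difference from the ribosomal protein promoters was not tested.

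Galactose, the sugar in this medium, is known to induce the GAL genes. The galactose list owned 4 promoter sides, of GAL2, GAL3, GAL7 and GAL80, and all 4 fell, with a median of -1.92. Its 6 terminator sides, of GAL7, GAL10, GAL80, FUR4, MTH1 and PGM2, fell too, with a median of -0.89. These counts are near the 85.3% of all sides that fell. EMP46-GAL2, 961 bp on chromosome XII (289251 to 290211), holds the promoter of the galactose permease. The GAL2 promoter side had 0.161 and 0.203 with auxin, 0.125 and 0.11 untreated and 0.147 and 0.152 without OsTIR1 under heavy digestion, against 1.39 to 2.07 in light libraries, a log2 change of -2.94 (SE 0.0926, limma adjusted p 3.17e-10). GAL10-GAL7, 725 bp on chromosome II (275528 to 276252), lies between the genes for the epimerase and the transferase of the galactose pathway. Its promoter side had 0.287 and 0.271 with auxin, 0.155 and 0.124 untreated and 0.229 and 0.212 without OsTIR1 under heavy, against 1.06 to 1.97 under light digestion, a change of -2.51 (SE 0.111, limma adjusted p 2.47e-09). Its terminator side fell by 1.67. GAL3 and GAL80, the sensor and the inhibitor of the pathway, had weaker falls of their promoter sides, -1.32 and -0.95.

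Of the 8 promoter sides of Hsp70, Hsp90 and other chaperone genes, 7 fell, with a median of -0.81, and 3 of 4 terminator sides fell, with a median of -0.29, beside the 85.3% of all sides that fell. The terminator side not called was that of HSP82-CIN2 (-0.06). The constitutive SSB1 and SSB2 fell by 1.64 and 1.36. The stress-inducible SSA3 did not pass the threshold: its promoter side had 1.16 to 1.46 under heavy and 0.915 to 1.22 under light digestion, a change of 0.18 (SE 0.0958). The terminator side of the same gene, in SSA3-ILS1, fell by 3.34, with 0.0556 to 0.102 under heavy and 0.913 to 2.34 under light digestion. PHO5-PHO3, between 2 acid phosphatase genes on chromosome II (429102 to 429547), fell in both sides, by 1.03 in the promoter and 1.7 in the terminator side.

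The genes that carry the degron tag each border 2 tandem gaps, which were looked up after values had been seen. Gap borders are those of the reference annotation, and where the tag sits relative to these gaps was not examined. In TOP2-TCB2 the terminator side of TOP2 had 0.0226 to 0.092 under heavy (median 0.0413) and 0.468 to 0.942 under light digestion, a log2 change of -2.5 (SE 0.151, limma adjusted p 2.65e-08). The terminator side of TOP1, in TOP1-CSI2, had 0.455 to 0.58 under heavy and 1 to 1.2 under light digestion, a change of -0.95. The promoter side of TOP1 fell by 0.81 and that of TOP2 by 1.

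**Figure D5:**
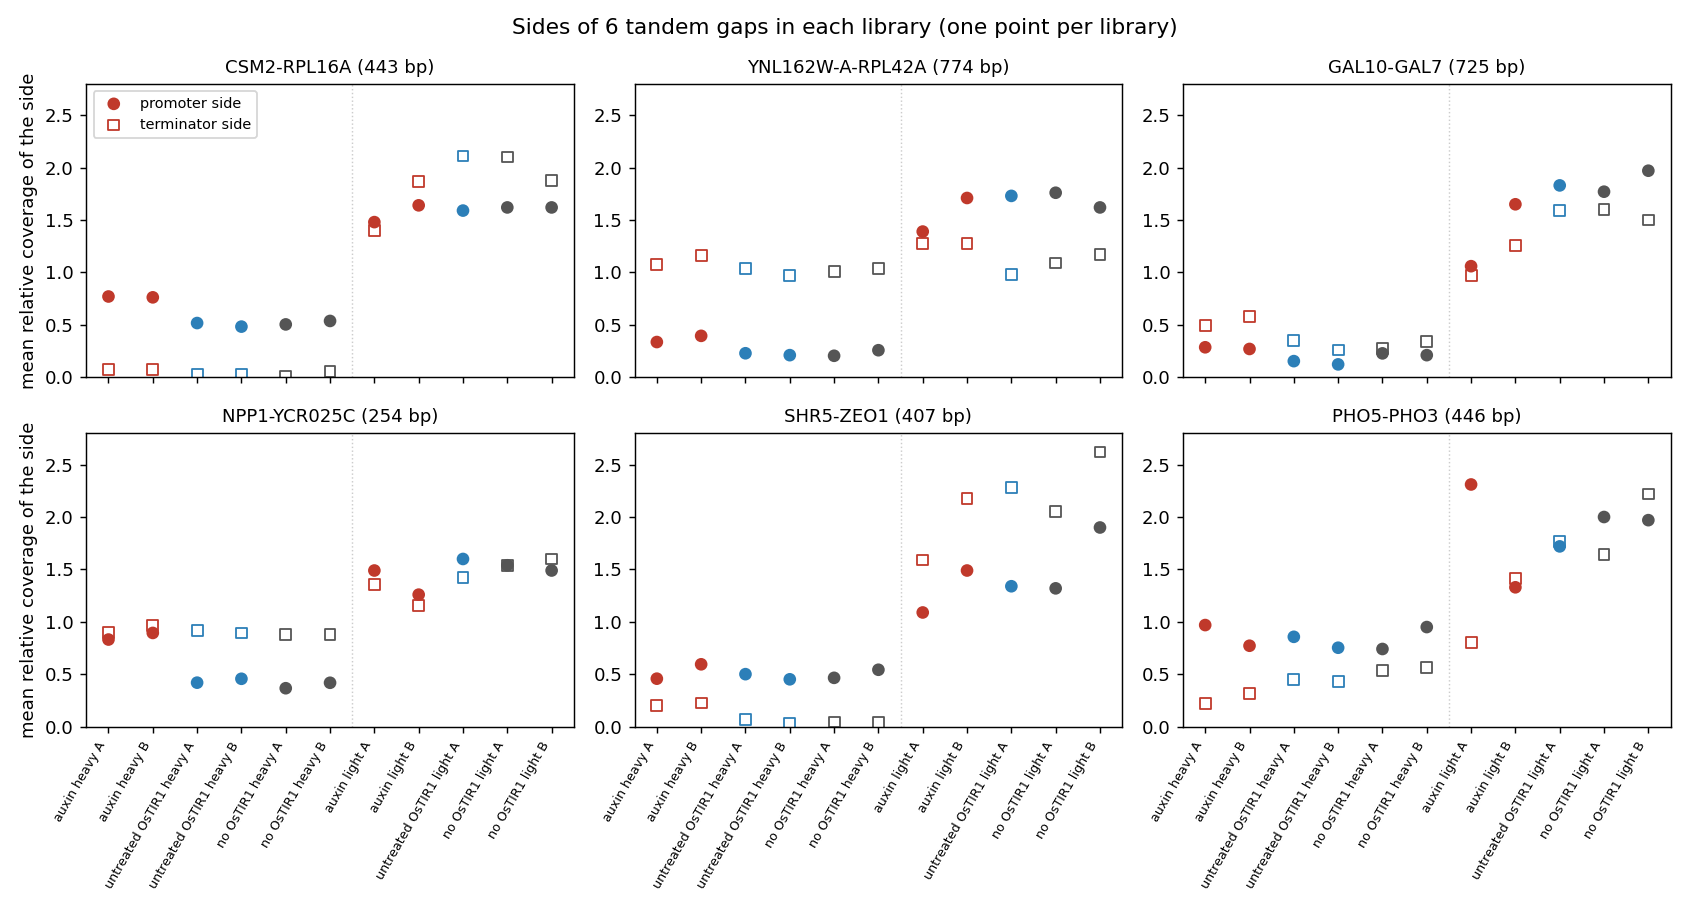
Mean relative coverage of the promoter side (filled) and the terminator side (open) of 6 tandem gaps in each library, 1 point per library; heavy libraries lie left of the dotted line. CSM2-RPL16A loses its terminator side and YNL162W-A-RPL42A its promoter side under heavy digestion, while NPP1-YCR025C and SHR5-ZEO1 show the sides with the lowest p for auxin.

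The third comparison set auxin-treated cells against untreated cells of the OsTIR1 strain, the contrast by which the design depletes both topoisomerases. Under heavy digestion (2 against 2 libraries), limma called 0 of 2176 ratios, 0 of 2177 promoter sides and 0 of 2178 terminator sides, against 0.0% of all gaps and 0.0% of all sides. At an unadjusted p under 0.05 there were 186 ratios, 112 promoter sides and 155 terminator sides. The same held for 291 of all 4062 gaps and 444 of all 8127 sides. The median log2 change was -0.064 for the ratio, -0.018 for promoter and 0.034 for terminator sides. Single libraries moved these values: the median of the ratio was -0.0354 without the auxin heavy library A and -0.0876 without the auxin heavy library B. Without the untreated heavy library B, 70 ratios, 27 promoter sides and 47 terminator sides had an unadjusted p under 0.05, and without the auxin heavy library B it was 384, 260 and 232. In gaps of 200 to under 300 bp the median change of the ratio was -0.093, and in gaps of 600 to 1000 bp it was -0.038. Under light digestion (2 against 1 library) limma called 0 ratios, against 0.0% of all gaps, with 116 at an unadjusted p under 0.05 and a median change of 0.034. The light median change was -0.088 for promoter and -0.131 for terminator sides, beside -0.105 over all sides, with 0 called by limma (0.0% of all sides) and 123 and 231 at an unadjusted p under 0.05. For the difference between heavy and light auxin changes, limma called 0 promoter and 0 terminator sides (0.0% of all sides), with 101 and 198 at an unadjusted p under 0.05 and medians of 0.0709 and 0.158. The lone untreated light library was assumed to vary like the other groups. The median of the ratio over the heavy libraries was 0.0516 with auxin and 0.0901 untreated, a difference of -0.0384 (two-sided exact permutation p 0.333, the smallest this design allows).

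The calls for auxin depended on which libraries entered. With the 6 heavy libraries alone, limma called 6 promoter sides (5 higher, 1 lower with auxin) and 7 terminator sides, all 7 higher. That fit called 0.295% of all sides, 0.271% as higher and 0.0246% as lower. Without the auxin light library A, whose auxin state is disputed, 2 promoter and 2 terminator sides were called, beside 0.0984% of all sides. Leaving out the auxin light library B in its place is the same test of this contrast, again with 2 and 2, beside 0.0984% of all sides. Either way the auxin light library that remains has no replicate, so only the error estimate changed, and no heavy auxin change did. These fits are therefore not separate results, and they do not test the disputed auxin state. With groups from the labels, limma called 0 promoter and 0 terminator sides, with 0 of each at an unadjusted p under 0.05. Mean fragments were 129 and 129.3 bp with auxin, against 131.1 and 132.4 bp untreated. With mean fragment length in the model in place of digestion level, limma called 0 promoter and 0 terminator sides, with 55 and 70 at an unadjusted p under 0.05, and the median change of the ratio was -0.0139.

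The sides with the lowest p for auxin were low in the control libraries and higher with auxin. In NPP1-YCR025C, a 254 bp gap on chromosome III (163857 to 164110) after a nucleotide pyrophosphatase gene, the promoter side had 0.832 and 0.895 with auxin, 0.421 and 0.458 untreated and 0.368 and 0.42 without OsTIR1 under heavy digestion. Both auxin libraries lay above the 4 others. The log2 change was 0.84 (SE 0.135, limma adjusted p 0.0743), and 0.00723 was the adjusted p in the 6 heavy libraries alone. Under light digestion the side had 1.49 and 1.26 with auxin and 1.6 untreated.

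SHR5-ZEO1 on chromosome XV (109890 to 110296) showed the same in its terminator side, with 0.207 and 0.227 with auxin, 0.0695 and 0.036 untreated and 0.0459 and 0.043 without OsTIR1. The change was 1.06 (SE 0.177, limma adjusted p 0.0858, and 0.00259 in the heavy libraries alone). Its promoter side had 0.459 and 0.596 with auxin and 0.502 and 0.453 untreated, which overlap. The promoter side of YBR196C-B-YBR196C-A had 0.134 and 0.146 with auxin, against 0.041 and 0.0315 untreated, a change of 0.82 (SE 0.132, limma adjusted p 0.0743, and 0.00723 in the heavy libraries alone). The terminator side of APC2-YLR126C, after a gene of the anaphase-promoting complex, had 0.207 and 0.248 with auxin, against 0.0863 and 0.0961 untreated, a change of 0.78 (SE 0.16, limma adjusted p 0.27, and 0.0307 in the heavy libraries alone).

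As with the sides above, the other 9 sides called in the heavy libraries alone had no adjusted p under 0.05 over all libraries. They included the promoter side of GAL10-GAL7, with a change of 0.66 (limma adjusted p 0.507, and 0.0434 in the heavy libraries alone). The promoter side of RPS24B in SEC6-RPS24B had 0.93 and 0.855 with auxin, 0.548 and 0.48 untreated and 0.548 and 0.59 without OsTIR1. The promoter side of NAT1-SIR2, which belongs to the gene for the silencing deacetylase, was the 1 side called as lower, with 0.212 and 0.338 with auxin, 0.563 and 0.5 untreated and 0.556 and 0.66 without OsTIR1. The terminator side of STU2-PDC1 had 0.621 and 0.583 with auxin, against 0.368 and 0.35 untreated. The others were the promoter side of LGE1-LCL1 (0.93) and the terminator sides of YIH1-PWP2 (0.94), YHR007C-A-ERG11 (0.86), YDR344C-HXT6 (0.74) and RPL28-YGK1 (0.66), with their log2 changes in parentheses. These gaps were chosen after their values had been seen.

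By list, limma called 0 sides and 0 ratios for auxin under heavy digestion, and the smallest adjusted p was 0.269. The 54 promoter sides of ribosomal protein genes had a median change of 0.33, beside -0.018 over all tandem promoter sides. The 8 of glycolysis had 0.07, the 4 of the galactose genes 0.30 and the 8 of chaperones -0.10. The terminator sides of ribosomal protein genes had a median of 0.20. The lowest base of a gap was at a median of 0.124 with auxin and 0.0688 untreated under heavy digestion, a difference of 0.0551 (two-sided exact permutation p 0.333, the smallest possible with 2 libraries each). Under light digestion the auxin libraries, at 0.542 and 0.694, lay below and above the untreated one, at 0.639.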

How the data were processed

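MNase-seq coverage of 11 yeast libraries was used. Per the text in the deposited files, each holds the number of fragments of 95 to 225 bp over every base as a coverage signal, without normalization; a second, contig-scaled list was not used. Bowtie2 and the sacCer3 build are named in the submitters' processing notes, without a version of Bowtie2; duplicate handling is not given in the sources used here. Gap borders came from the RefSeq annotation of assembly R64, with the strand read from the locus tag. Coverage was divided by the nuclear mean without the ribosomal DNA (chromosome XII, 451786 to 489469), averaged per side and tested as log2(value + 0.1) with limma 3.58.1 in R 4.3.3 (5 residual degrees of freedom), over all gaps with a mean of at least 0.1. The fit was checked on simulated data. Medians and profiles (smoothed over 21 bp) used Python 3.11.15 and numpy 2.4.6.

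The members and lists were chosen with earlier results of these data known. Groups followed the file names; GEO's labels were an alternative. Named gaps were, for each comparison and measure, up to 5 with the largest change in each direction past the threshold whose libraries did not overlap within states, or the 3 with the lowest p where none passed; the 5 with the highest and the 5 with the lowest mean ratio at each digestion level, a set left out of the text; fixed gaps (GAL10-GAL7, PHO5-PHO3); and gaps of the listed genes. GAL1-FUR4 did not qualify, because an annotated antisense RNA reaches into it. Fragment totals (8906121 to 31138013) set the precision of single sides. Alternatives were other groupings, libraries left out, models, pseudocounts, filters, scaling, windows and replicate blocks. Sequence features were not analysed here.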

Additional observations from a re-analysis of the deposited data

How the results depend on the processing

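The digestion counts (1443 ratios, 1889 promoter and 1984 terminator sides called) stayed within 1.5 times of these values under every alternative run except groups by GEO's labels, which gave 0, 0 and 0. The label grouping also gave a median change of the ratio of 0.0432 for digestion, and turned the auxin medians round, to 0.0313 under heavy and -0.0143 under light digestion. Leaving out single libraries moved the 3 digestion counts between 1267 and 1529, 1831 and 1924, and 1922 and 2001. The first and last 100 bp in place of sides gave 0.176 for digestion and -0.102 for auxin under heavy digestion.

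For auxin under heavy digestion, limma called 0 ratios under every alternative run (39 at an unadjusted p under 0.05 with GEO's labels). Promoter and terminator sides had 2 and 2 calls without auxin light library A. Leaving out auxin light library B is the same test of this contrast, so its 2 and 2 calls are not a separate result. There were 6 and 7 calls with the heavy libraries alone and 1 and 1 with a pseudocount of 0.05. When single libraries were left out there were 0 to 2 each. The median ratio change was -0.0178 with additive terms, -0.0139 with mean fragment length in the model and -0.00864 with the 7 matching libraries. Under light digestion the median was -0.0178 with additive terms, 0.0753 without auxin light library A and 0.000368 to 0.0753 when single libraries were left out; the causes were not tested.

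A replicate block by culture letter gave 2 promoter and 2 terminator calls for auxin by limma, in NPP1-YCR025C and YBR196C-B-YBR196C-A (adjusted p 0.0325 each), SHR5-ZEO1 (0.0148) and APC2-YLR126C (0.0385), and a replicate block by title number gave 0 and 0, with 1365 ratios called for digestion. Deviations of same-letter libraries had r of 0.644 for no OsTIR1 light with auxin light and 0.526 for auxin light with auxin heavy. For no OsTIR1 light with auxin heavy r was 0.381, and the other pairs of groups had -0.203 to 0.0169. Shared deviations were thus seen in some groups only, so the letters were not shown to pair libraries throughout. The main fit treats all 11 libraries as independent. Chosen after seeing the data, fits with the 4 libraries without OsTIR1 called 1245, 1742 and 1865 for digestion, and with the 5 light libraries 0 ratios for auxin (24 at an unadjusted p under 0.05). No auxin value under light digestion could be had with the 7 matching libraries, the heavy libraries alone, fragment length in the model, or without the untreated light library.

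The main limits are that 4 libraries have conflicting labels, states have 1 or 2 libraries per digestion level, coverage is relative, and sides near 0 under heavy digestion depend on the pseudocount.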
